A study of Mus musculus with 24 samples.

Results

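The late regions were 6773 of the 98240 regions of accessible chromatin found in mouse epidermal stem cells (EpdSCs) over 12 weeks of SOX9 expression, a share of 6.89%. A late region had no ATAC-seq peak at D0, W1 or W2 and had a peak at both W6 and W12, after peaks of these 5 in vivo lists that overlapped by at least 1 bp were merged. The members were therefore chosen on the peak calls of the in vivo lists, and their W6 and W12 values are given below as a description. ATAC-seq uses the Tn5 transposase, which inserts adapters where DNA is not covered by nucleosomes. The series holds 24 samples in 12 groups of 2 replicates, and the authors merged both replicates of a group before peaks were called. Each group is thus 1 peak list, with no spread between replicates and no test across them. Intervals are 95% Wilson intervals for shares and Newcombe intervals for differences between shares, in percentage points, and cover counting error only, because neighbouring regions of a genome are not replicates.

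The in vivo cells came from CD1 male mice carrying K14rtTA and TRE-myc-Sox9, in which the Krt14 promoter drives the doxycycline-dependent activator in skin epithelium and doxycycline (DOX) then switches on MYC-tagged SOX9. All 5 in vivo groups carried both transgenes, the uninduced D0 mice included. Mice were at postnatal day 21 for D0, day 28 for W1, day 35 for W2 and day 63 for W6, and cells of several males were pooled in a replicate. W12 cells came from neonatal transgenic skin grafted onto immunocompromised Nude females, which healed before DOX was given, so at W12 the week and the tissue source cannot be told apart. EpdSCs were sorted as CD49f-high, CD34-negative and Ly6A-high after removal of cells with CD31, CD45, CD117 or CD140a. The 7 culture lists, which had no part in the choice of members, came from keratinocytes of newborn skin without DOX (noDOX) or with DOX at 1 µg/ml and WT-SOX9, ΔHMG-SOX9 (no DNA-binding domain), ΔTA-SOX9 (no transactivation domain), AFOS (a dominant-negative FOS that blocks AP1), SOX9+AFOS or SOX9+ARID1a (ARID1a is a SWI/SNF subunit). The labels give day 3 of DOX for replicate 1 of WT-SOX9, ΔHMG-SOX9 and ΔTA-SOX9 and no time for the other samples with DOX, so that arms may differ in how long they were induced. noDOX samples are labelled as WT-SOX9 cells, so that each arm other than WT-SOX9 is set against a noDOX list from another construct.

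SOX9 is an HMG-box factor that can bind its sequence within nucleosomal DNA and is needed for hair follicle stem cells, whereas adult EpdSCs normally lack it. AP1 factors are dimers of FOS and JUN proteins that are active in basal keratinocytes and in wound repair, and RUNX factors bind DNA with their partner CBFB and act in hair follicle stem cells and in many epithelial tumours.

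Sequences are shown for 9 late regions that carry the consensus matches on which the motif results turn. All are the central 200 bp, from the forward strand of GRCm38 (NCBI RefSeq genome sequence), with matches in capitals: AP1 is TGACTCA or TGAGTCA, RUNX is TGTGGT or ACCACA, SOX is ACAATGG or ACAATAG or the reverse complement of either (CCATTGT and CTATTGT), and GATA is AGATAA or TTATCT. The first 4 are among the regions with the highest scores, with and without both AP1 and RUNX letters. The Fos and Mmp9 regions represent gene lists described below, and the last 3 hold SOX letters.
Nhsl1 intron, chr10:18463246-18463445: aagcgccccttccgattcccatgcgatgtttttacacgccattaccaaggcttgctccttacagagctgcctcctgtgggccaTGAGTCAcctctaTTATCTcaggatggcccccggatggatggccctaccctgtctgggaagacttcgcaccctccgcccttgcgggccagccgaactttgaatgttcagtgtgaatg
Lncpint intron, chr6:31126586-31126785: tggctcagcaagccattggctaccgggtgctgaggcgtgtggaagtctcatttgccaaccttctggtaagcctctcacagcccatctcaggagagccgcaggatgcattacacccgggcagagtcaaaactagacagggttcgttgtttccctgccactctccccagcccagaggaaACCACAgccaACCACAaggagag
Trpm6 intron, chr19:18766525-18766724: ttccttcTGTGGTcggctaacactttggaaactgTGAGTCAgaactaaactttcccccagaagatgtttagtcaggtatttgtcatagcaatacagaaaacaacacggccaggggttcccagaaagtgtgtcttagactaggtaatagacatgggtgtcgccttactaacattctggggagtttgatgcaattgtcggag
Trim66 intron, chr7:109470830-109471029: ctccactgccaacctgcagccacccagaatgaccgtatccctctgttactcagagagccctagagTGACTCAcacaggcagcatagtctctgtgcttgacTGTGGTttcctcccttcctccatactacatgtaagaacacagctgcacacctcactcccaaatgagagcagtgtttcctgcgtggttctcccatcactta
Fos, downstream, chr12:85519656-85519855: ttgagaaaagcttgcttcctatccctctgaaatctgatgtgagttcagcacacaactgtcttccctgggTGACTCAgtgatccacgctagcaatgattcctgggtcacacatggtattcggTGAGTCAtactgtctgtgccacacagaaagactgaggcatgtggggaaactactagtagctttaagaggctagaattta
Mmp9, upstream, chr2:164932705-164932904: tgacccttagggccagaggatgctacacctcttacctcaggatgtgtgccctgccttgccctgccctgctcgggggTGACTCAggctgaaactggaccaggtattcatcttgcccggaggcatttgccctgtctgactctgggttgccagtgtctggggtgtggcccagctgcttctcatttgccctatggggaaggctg
chromosome 3, intergenic, chr3:137150557-137150756: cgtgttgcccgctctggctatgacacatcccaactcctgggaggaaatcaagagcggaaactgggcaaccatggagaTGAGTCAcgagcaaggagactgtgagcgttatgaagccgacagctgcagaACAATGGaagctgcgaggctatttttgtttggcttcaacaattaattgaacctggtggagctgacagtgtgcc
chromosome 14, intergenic, chr14:82065420-82065619: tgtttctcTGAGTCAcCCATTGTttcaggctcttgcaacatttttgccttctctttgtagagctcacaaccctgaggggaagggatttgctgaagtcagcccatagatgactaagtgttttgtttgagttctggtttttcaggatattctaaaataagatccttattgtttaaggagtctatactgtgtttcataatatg
chromosome 1, intergenic, chr1:29936543-29936742: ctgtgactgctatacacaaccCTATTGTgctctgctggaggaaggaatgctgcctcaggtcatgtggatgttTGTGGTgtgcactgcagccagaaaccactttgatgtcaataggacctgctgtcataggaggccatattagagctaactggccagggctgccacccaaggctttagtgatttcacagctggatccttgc

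A match is a description of the letters in the window and does not show that a factor binds there. In the chromosome 14 sequence the AP1 and SOX letters stand side by side with 1 base between them, and in the Lncpint sequence both RUNX matches lie near the 3′ end. The Fos sequence holds AP1 matches of both forms.

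The peaks of the late regions were low in score and similar at both weeks. The score is the authors' peak score, apparently normalized so that each list has a similar sum, and no list holds a score below 3. At W6 the scores of the late regions ran from 3.0 through a median of 5.33 to 36.1, and at W12 from 3.0 through 5.01 to 42.7. The quartiles were 3.97 and 7.33 at W6, and 3.79 and 7.16 at W12. Median fold enrichment over local background was 5.6 at W6 and 5.73 at W12. The 37116 static regions, which had a peak in all 5 lists, had median scores of 14.5 and 14.6, and the 7854 regions gained by W2 and kept (no peak before W2, a peak from W2 on) had 9.74 and 6.90. The late regions thus lay below both classes, and above the 7954 regions present at W6 only (3.92) and the 5272 present at W12 only (3.87). Their median width of 420 bp was also below that of static regions (783 bp) and of regions gained by W2 and kept (535 bp).

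Many members lay close to the score limit that decides membership. At W6 712 late regions had a score under 3.5, at W12 1166 did, and 206 were under 3.5 in both lists, while 2242 reached 5 and 304 reached 10 at both weeks. On the other side of the limit, 838 regions were kept out by a D0 peak alone, 234 of these with a D0 score under 3.5. A W1 peak alone kept out 670, of which 174 scored under 3.5. Of the 7854 kept out by a W2 peak alone, 343 had a W2 score under 3.5, and these had median scores of 6.22 at W6 and 5.17 at W12. With the lists cut to equal size 3505 regions were late, and with the W12 or the W2 list left out of the rule 14727 and 14627 were. These last counts take in the W6 only regions and the regions gained by W2 and kept, respectively. The same score did not stand for the same evidence in each list, as the lowest −log10 q-value differed (14.5 in the D0 list, 9.37 in W1, 4.21 in W2, 5.74 in W6 and 10.1 in W12).

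W6 and W12 ranked the late regions differently. The median log2 ratio of the W12 to the W6 score was -0.08, and 44.8% of the late regions had the higher score at W12. A score at least 2 times higher at W12 was found in 389 (5.74%), and at least 2 times higher at W6 in 560 (8.27%). Spearman's rho between both scores was 0.376 across the 6773 late regions, against 0.654 in regions gained by W2 and kept and 0.862 in static regions, given as a description over regions that come from the same pair of lists and, for the late class, start at the same limit. The summits at both weeks were a median of 40 bp apart and within 50 bp of each other in 59.1% of late regions.

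**Figure D1:**
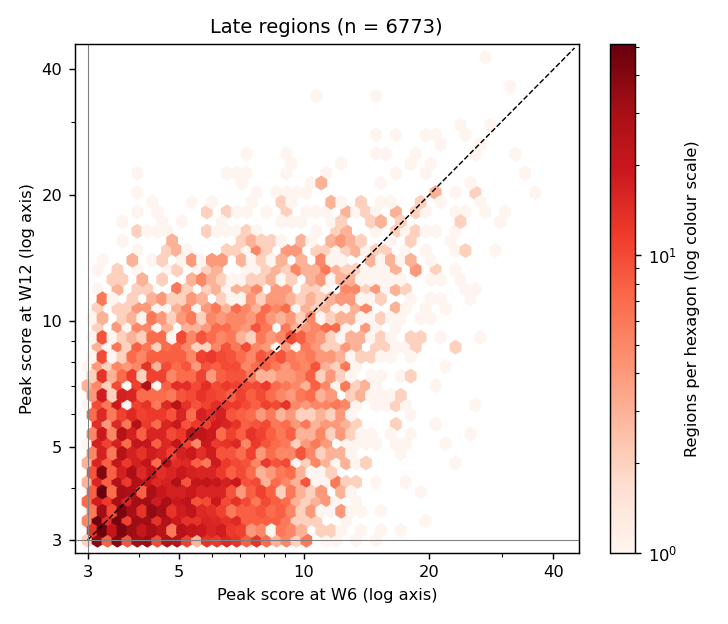
Peak score of the late regions at W6 (x axis, log) and at W12 (y axis, log); the colour gives the number of regions in a hexagon on a log scale, grey lines mark the lowest score of 3 and the dashed line marks equal scores. Most of the 6773 regions lie near the lower left corner, with medians of 5.33 and 5.01, and few follow the diagonal to scores above 20.

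The 5 late regions with the highest smaller score of both weeks were spread over 5 chromosomes and lay outside promoters. The first, chr15:44851373-44852240, lay in an intron of A930017M01Rik and scored 31.4 at W6 and 36.3 at W12. In culture it scored 42.9 without DOX and 15.7 with WT-SOX9, and it had no SOX9+AFOS peak. The Nhsl1 region (chr10:18463098-18463593), in an intron of Nhsl1, scored 27.7 and 29.2, and in culture had a peak with ΔHMG-SOX9 only (6.47). The region in an intron of the non-coding gene Lncpint (chr6:31126327-31127045) scored 27.0 and 42.7, had no noDOX peak and scored 24.6 with WT-SOX9 and 4.96 with ΔTA-SOX9. The region in an intron of Trpm6 (chr19:18766308-18766941), a magnesium channel gene, scored 26.2 and 25.9, and in culture 9.49 without DOX, 4.10 with WT-SOX9 and 26.5 with ΔTA-SOX9, with no peak in either SOX9+AFOS or SOX9+ARID1a. The fifth, chr13:73373974-73374831, was intergenic, scored 26.2 and 25.2 and had a peak in all 7 culture lists (10.3 to 37.4). These 5 regions differed in how many culture lists held a peak, from 1 to 7.

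The late regions lay away from promoters. A promoter, defined as a centre within 1 kb of a transcription start in the GENCODE M21 annotation, was the location of 264 late regions (3.90%), against 17.1% of all other regions and 32.5% of static regions. Regions gained by W2 and kept had the same low share (3.88%). Introns held 48.8% of the late regions, intergenic sequence 42.2%, coding exons 1.46%, UTRs 1.18% and non-coding exons 2.48%. The median distance to a start site was 30177 bp, against 9836 bp in static regions and 30691 bp in regions gained by W2 and kept, and 36.8% of the late regions were over 50 kb away. The share of all regions on a chromosome that were late ran from 4.29% on chromosome X to 8.40% on chromosome 3. Another late region lay within 10 kb of 16.6% of them, a region gained by W2 and kept within 10 kb of 15.4%, and a static region within 10 kb of 36.2%.

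The late regions held AP1 letters more often than most other regions. An AP1 match in the central 200 bp was present in 39.9% of the 6772 late regions with placed sequence (1 had none), against 18.05% of all other regions, a difference of 21.9 points (20.7 to 23.1). Regions gained by W2 and kept held one in 26.9%, a difference of 13.1 points (11.6 to 14.6), and static regions in 15.8%. The classes seen at a single late week differed from each other, with 18.9% in W6 only and 41.6% in W12 only regions. Late and W12 only regions differed by -1.61 points, with an interval from -3.38 to 0.15 that includes 0. When late regions were defined without the W12 list, which takes in the W6 only regions, the difference from other regions was 10.6 points. AP1 letters were found more than once in 5.01% of the late regions and in 1.51% of all others, with 4.98% in W12 only regions. The forms TGACTCA (48.6%) and TGAGTCA (51.4%) were about equally frequent among 3067 matches in the late regions.

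RUNX letters were also more frequent, by less. They were present in 23.1% of the late regions, 14.3% of all others (difference 8.84 points, 7.83 to 9.88), 19.0% of regions gained by W2 and kept and 12.1% of static regions. W6 only regions had 18.3% and W12 only regions 21.4%. The late regions exceeded W12 only regions by 1.72 points (0.22 to 3.21). Over the full length of the regions, which differs between classes, the difference from all others was 4.93 points, and late regions then had a lower share than those gained by W2 and kept, by 1.88 points. AP1 or RUNX letters or both were found in 54.7% of the late regions and 29.5% of all others, with 54.9% in W12 only regions. Both were found together in 563 late regions (8.31%), but RUNX letters were no more frequent beside AP1 letters (20.8%) than without them (24.6%). In those 563 the nearest matches were a median of 44.5 bp apart, 22.9% were within 20 bp, and in 21 the letters overlapped.

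SOX letters were found in 7.81% of the late regions, fewer than the 12.2% of regions gained by W2 and kept (difference -4.39 points, -5.35 to -3.42) and more than the 3.14% of static regions. W6 only regions had 9.20% and W12 only regions 5.09%. The share in all other regions was 5.15%, lower than in the late regions by 2.67 points (2.03 to 3.34), and this difference was 1.43 points in the central 100 bp and 5.73 with a common q-value minimum. GATA letters, the sequence of GATA3 and its relatives in epidermis, were present in 7.31% of the late regions and in 10.7% of all others. The low GATA share was not particular to the late regions. It was 7.92% in regions gained by W2 and kept, 7.49% in W6 only, 8.77% in W12 only and 8.26% in static regions. Over all other regions that were not static it was 12.4%. Of the 16 consensus sequences searched, the others differed less: ETS (CAGGAAG or CTTCCTG) had 11.8% against 9.66%, NF-kB (GGANTTTCC or GGAAANTCC) 1.70% against 1.30%, TEAD (ACATTCC or GGAATGT) 3.51% against 4.27%, STAT (TTCNNNGAA) 7.46% against 6.26%, the p53 family 9.47% against 8.83% and CTCF 1.79% against 2.44%. GLI letters (TGGGTGGTC or GACCACCCA), the sequence read by hedgehog effectors, were found in only 4 late regions. None of the AP1, RUNX, SOX or GATA letters was present in 38.8% of the late regions, among them the A930017M01Rik intron described above. In W12 only regions this share was 39.0%.

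**Figure D2:**
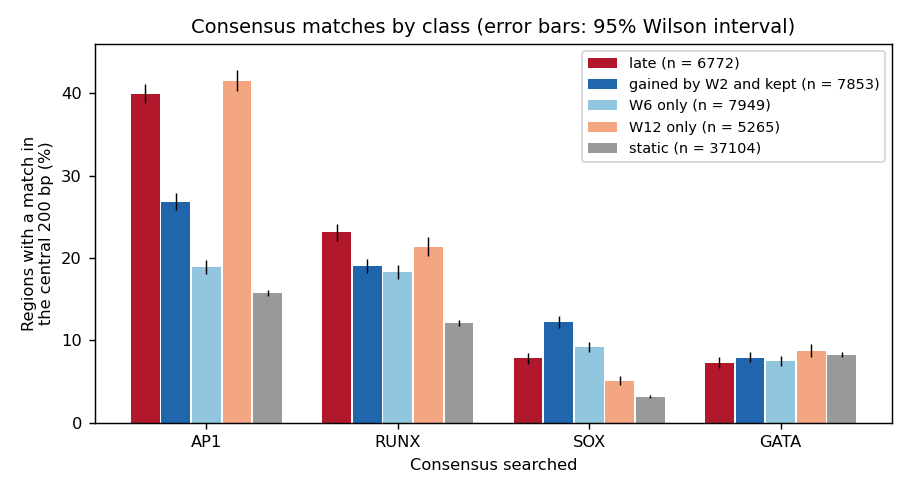
Percent of regions with a consensus match in the central 200 bp (y axis) for 4 consensus sequences (x axis) in 5 classes of in vivo regions; bars are shares and error bars 95% Wilson intervals. The AP1 bar of the late regions (39.9%) stands near that of W12 only regions (41.6%) and above W6 only regions (18.9%), and their SOX bar (7.81%) lies between those of regions gained by W2 and kept (12.2%) and static regions (3.14%).

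AP1 letters lay near the peak summit. Within 50 bp of the W6 summit they were present in 27.4% of the late regions, 18.8% of regions gained by W2 and kept and 12.9% of static regions. The late regions had their most AP1 matches about 25 bp to either side of the summit, with 3.87% of regions in the bin centred 25 bp before it and 4.02% in the bin 25 bp after it, against 2.54% and 2.58% in the bins next to the summit. At 105 bp the values were 0.871% before and 1.39% after it. RUNX letters within 50 bp were present in 13.2% of the late regions and SOX letters in 3.96%, against 10.5% and 7.14% of regions gained by W2 and kept. At the W12 summit 29.3% of the late regions held AP1 letters within 50 bp.

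**Figure D3:**
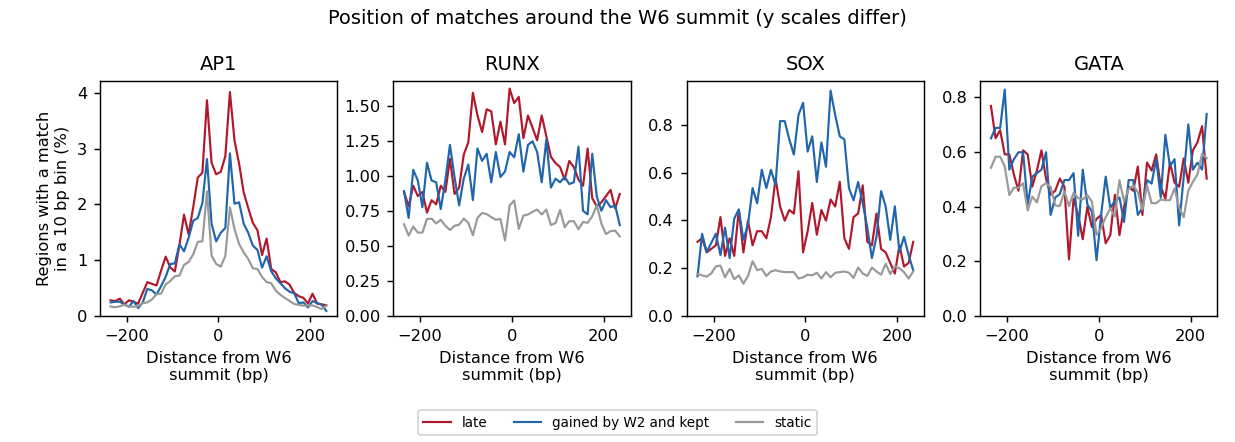
Percent of regions with the centre of a match in each 10 bp bin (y axis) by distance from the W6 summit in bp (x axis), for AP1, RUNX, SOX and GATA letters in 3 classes; the y scales differ between panels. The AP1 curve of the late regions has a maximum on either side of the summit, 3.87% and 4.02%, and the SOX curve of the late regions lies below that of regions gained by W2 and kept near the summit.

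The share with AP1 letters varied with the peak score. Both scores decided membership, so the splits by score are descriptions only. In tertiles of the smaller score of both weeks, the AP1 share was 34.6%, 39.1% and 46.1%, from lowest to highest, and the RUNX share was 21.4%, 22.3% and 25.7%. At W6 scores from 3 to 5, AP1 letters were found in 38.1% of late regions, 23.7% of regions gained by W2 and kept and 18.6% of W6 only regions. In tertiles of the W12 to W6 ratio the AP1 share was 34.4% where W6 scored higher and 46.7% where W12 scored higher. The SOX shares in the same tertiles were 10.7% and 6.29%.

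In culture, late regions had peaks less often than all other in vivo regions in every list but ΔTA-SOX9. The deficit was not confined to arms with SOX9, as noDOX differed by -5.55 points (-6.76 to -4.34). SOX9+AFOS differed by -19.5, WT-SOX9 by -7.79, ΔHMG-SOX9 by -5.14, SOX9+ARID1a by -3.86, AFOS by -1.47 and ΔTA-SOX9 by 1.53 points. A noDOX peak was found in 2728 late regions (40.3%), against 45.4% of all 98240 in vivo regions and 37.3% of those gained by W2 and kept. WT-SOX9 had a peak in 35.1% of the late regions (42.3% over all regions) and in 49.0% of those gained by W2 and kept. The shares were 36.9% for ΔHMG-SOX9 (41.7% over all regions), 44.4% in the ΔTA-SOX9 list (43% over all regions), 41.6% in AFOS (43%) and 39.5% in SOX9+ARID1a (43.1%). SOX9+AFOS had the lowest share, with a peak in 21.7% of the late regions against 39.9% over all regions. No culture list had a peak in 2444 late regions (36.1%), against 53.6% of all other regions that were not static and 16.0% of static regions. All 7 had one in 700 late regions (10.3%), against 7.24% of other non-static and 51.8% of static regions. Up to 50 late regions in 1 list shared a culture peak with another late region, for example a pair at Pgf. The difference of the late regions from all others turned direction under alternatives for ΔTA-SOX9, AFOS, SOX9+ARID1a and WT-SOX9 peaks. For noDOX it ran from -1.61 points with lists of equal size to -22.2 points without the W12 list. Without that list the class takes in the W6 only regions, of which 14.9% had a noDOX peak.

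Without a noDOX peak, 4045 late regions could gain one in an arm. WT-SOX9 had a peak in 662 of them (16.4%), above the 11.8% of all in vivo regions without a noDOX peak but well below the 32.5% of regions gained by W2 and kept, a difference of -16.1 points (-17.8 to -14.4). W6 only regions had 10.4% and W12 only regions 9.28%. ΔTA-SOX9 opened 16.5%, against 8.88% over all regions, 9.24% of those gained by W2 and kept and 19.2% of W12 only regions, which exceeded the late regions by an interval that excludes 0 (late minus W12 only -2.68 points, -4.43 to -0.95). ΔHMG-SOX9 opened 8.38% (5.9% over all regions), AFOS 13.4% (8.67%), SOX9+AFOS 10.4% (13.1%) and SOX9+ARID1a 14.4% (11.2%). Of the 662 regions opened with WT-SOX9, 321 also had a SOX9+ARID1a peak, 117 a ΔTA-SOX9 peak and 83 a ΔHMG-SOX9 peak. SOX letters were more frequent among the regions opened with WT-SOX9. Of the late regions with SOX letters 35.6% were opened, against 14.6% of those without, a difference of 21.1 points (16.1 to 26.4). With ΔHMG-SOX9 the shares were 5.75% and 8.63%, and the interval of the difference, -5.09 to 0.20 points, included 0. Shares were higher with SOX letters for SOX9+ARID1a (24.4% against 13.4%) and SOX9+AFOS (16.4% against 9.79%). They were lower with the letters for ΔTA-SOX9 (10.9% against 17.1%) and AFOS (9.77% against 13.8%). The chromosome 1 sequence shown above (region chr1:29936435-29936850), which holds SOX and RUNX letters, scored 53.5 with WT-SOX9, 27.0 with SOX9+AFOS and 14.5 with SOX9+ARID1a, 5.36 with AFOS alone and had no peak with noDOX, ΔHMG-SOX9 or ΔTA-SOX9. Against all other regions, the direction turned without the W12 list for ΔHMG-SOX9 (-0.730 points) and SOX9+ARID1a (-1.20) and for SOX9+AFOS with the common q-value minimum (0.780) and without the W2 list (5.26). The highest WT-SOX9 scores among opened late regions were 84.5 in an intron of Mbp, 58.6 in an intron of Gtf2h2 near Naip1 and 55.1 in an intron of Farp1.

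With a noDOX peak, 2728 late regions could lose it. WT-SOX9 lacked a peak in 1014 of them (37.2%), against 21% of all in vivo regions with a noDOX peak and 23.3% of those gained by W2 and kept, a difference of 13.9 points (11.5 to 16.3). Such losses were not particular to the late regions. They were higher in W6 only (42.5%) and W12 only regions (50.1%), 35.9% over all other regions that were not static and 11.9% in static regions. SOX9+AFOS lacked one in 61.4% of the late regions (28% over all regions, 41.0% of those gained by W2 and kept), against 74.2% of W12 only, 50.2% of W6 only and 15.7% of static regions. The arms without full-length SOX9 had lower shares, with 20.7% for ΔHMG-SOX9 (15.3% over all regions), 14.2% with ΔTA-SOX9 (16%) and 16.7% with AFOS (15.9%), and SOX9+ARID1a had 23.2% (18.6%). Of the 1014 regions without a peak in WT-SOX9, 837 kept one in ΔTA-SOX9 and 593 in SOX9+ARID1a, while 865 also lacked one in SOX9+AFOS. These values come from arms of unequal list size, and calling may have differed for AFOS, SOX9+AFOS and SOX9+ARID1a, whose peak names record fragments as input. For ΔTA-SOX9 the direction against all other regions turned without the W12 list (5.13 points) and without the W2 list (3.18). It also turned for AFOS with lists of equal size (-2.28) and where the peak had to cover the region's centre (-0.0169), and for SOX9+ARID1a with the common q-value minimum (-0.220).

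AP1 letters separated the late regions in culture. A noDOX peak was found in 52.5% of the late regions with AP1 letters and 32.1% of those without, a difference of 20.4 points (18.02 to 22.7). SOX9+AFOS lacked the peak in 69.3% of those with the letters and 52.7% of those without, and opened 3.74% against 13.4%. The loss was lower with AP1 letters in 4 other arms. AFOS alone lacked the noDOX peak in 12.7% of those with the letters and 21.04% of those without, a difference of -8.37 points (-11.2 to -5.57), ΔTA-SOX9 in 10.1% and 18.7%, ΔHMG-SOX9 in 17.6% and 24.1% and SOX9+ARID1a in 20.7% and 26.0%. Gains were more frequent with the letters for ΔTA-SOX9 (23.4% against 13.3%), AFOS (18.6% against 11.1%) and ΔHMG-SOX9 (10.9% against 7.21%) and less frequent for WT-SOX9 (12.9% against 17.97%, a difference of -5.04 points, -7.31 to -2.65). For SOX9+ARID1a they were 15.4% and 13.9%, with an interval of the difference from -0.758 to 3.96 points that included 0. For WT-SOX9 the loss of a noDOX peak was 37.7% with and 36.6% without the letters, and the interval of the difference, -2.48 to 4.77 points, included 0. The region in an intron of Gm12606 near Cdkn2a (chr4:89257587-89258199), which encodes cell cycle inhibitors, holds AP1 letters and scored 14.6 at W6 and 25.7 at W12. Its culture scores were 38.7 without DOX, 6.88 with WT-SOX9, 53.6 with ΔTA-SOX9 and 3.41 with SOX9+AFOS.

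**Figure D4:**
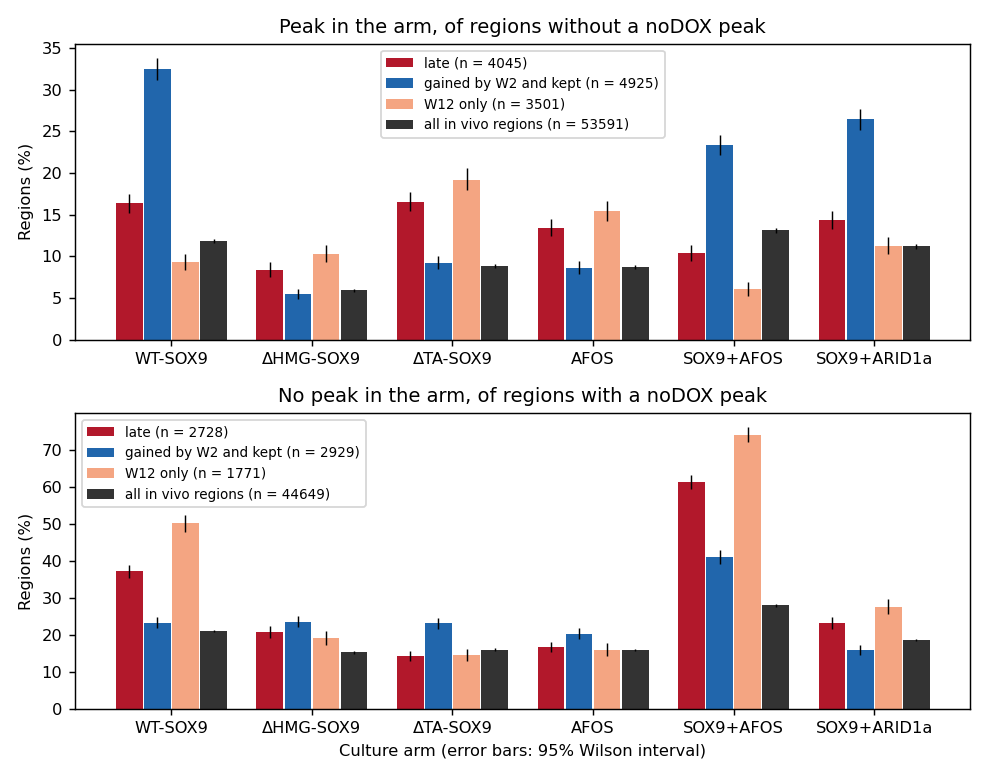
Percent of regions with a peak in a culture arm among those without a noDOX peak (top) and without a peak in the arm among those with one (bottom), for 4 sets of in vivo regions; error bars are 95% Wilson intervals. Late regions gained a WT-SOX9 peak in 16.4%, less often than the regions gained by W2 and kept (32.5%); the noDOX peak was lost in 37.2% with WT-SOX9 and 61.4% with SOX9+AFOS.

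Each region was assigned to the protein-coding gene with the nearest start site within 100 kb. Of 16546 genes with an in vivo region, 3737 (22.6%) had a late region, 2702 of them exactly 1 and 45 at least 5. No start site lay within 100 kb of 1452 late regions. Among the genes with the most late regions were Ltbp1 (9 of its 23 regions), Eps8 (8 of 13), Pde4d (8 of 77), Pxdn (8 of 13), Ank (7 of 20), Foxp1 (7 of 58), Gpc6 (7 of 12), Sox5 (7 of 17), Akap13 (6 of 43), Apbb2 (6 of 26), Cdc14a (6 of 15) and Cfap54 (6 of 16). The last 4 are the first by alphabet of 11 genes with 6 late regions. LTBP1 holds latent TGF-beta in the matrix, EPS8 caps actin filaments, PXDN crosslinks collagen IV in basement membranes and FOXP1 and SOX5 are transcription factors. Long genes have more room for regions, and the counts are not corrected for length. None of the late regions of Gpc6 or Sox5 had a noDOX peak, whereas 5 of 7 at Foxp1 and 5 of 6 at Akap13 did.

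Among 18 gene lists, the late share was highest for matrix proteases (15.8%), EMT factors and cadherins (14.3%) and the TGF-beta and BMP list (12.9%) and lowest for epidermal identity factors (2.34%) and keratins (2.44%). Over all regions assigned to a gene, 6.43% were late, and this is the value against which each list is read. Where regions were instead assigned to every gene whose body lay within 5 kb, 6.07% of the assigned regions were late. By gene body, the intervals of the TGF-beta and BMP list, matrix proteases and RUNX factors lay above that share and those of epidermal identity and hair follicle stem cell factors below it. The TGF-beta and BMP list, ligands, receptors and SMAD proteins that control growth and matrix, had 29 late of 225 regions (12.9%, 9.13 to 17.9), at 9 of 15 genes. Ltbp1 gave 9 of the 29, the signal transducer Smad3 5, the receptor Tgfbr2 5, the activin antagonist Fst 3, and Bmp2 and the inhibitor Smad7 2 each. The 9 regions at Ltbp1 scored from 3.22 to 18.8 at W6 and from 3.01 to 18.1 at W12. Matrix proteases and their inhibitors had 9 of 57 (15.8%, 8.54 to 27.4), with 2 each at Mmp9, Mmp13 and Adam12. EMT factors and cadherins had 6 of 42 (14.3%), with 3 at Zeb2 and 2 at Snai1, and when regions were assigned by gene body this share was 5.26%. Angiogenic factors had 9 of 84 (10.7%), with 3 at Pgf, a ligand of the VEGF family, and 2 at Vegfa; by gene body the share was 4.17%. Hair follicle stem cell markers had 10 of 92 (10.9%), with 4 at Cd34 and 2 at Lgr5. The intervals of the angiogenic and hair follicle lists included 6.43%, and intervals were not adjusted for the 18 lists.

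The intervals of the hedgehog, RUNX, AP1, NF-kB and hair follicle factor lists included the share over all regions, and that of epidermal identity factors lay below it. The hedgehog pathway had 10 of 131 (7.63%), with 3 at Gli2 and 2 at Gli3, and 5% by gene body. RUNX factors had 5 of 67 (7.46%), with 2 each at Runx1 and Cbfb, whereas by gene body the share was 12.1% (8 of 66), with 6 at Runx2. AP1 subunits had 5 of 101 (4.95%), with 2 at Fos, and 0 of 48 by gene body, and the NF-kB pathway 6 of 142 (4.23%), with 3 at Nfkb1 and 2 at Rel. Hair follicle stem cell factors had 11 of 193 (5.70%), with 3 at Foxc1 and 2 at Id2, and 1 at Sox9 itself, and 2.05% by gene body. Epidermal identity factors had 5 of 214 (2.34%, 1.00 to 5.35), with 2 each at Klf5 and Notch1, and keratins 1 of 41, at Krt14, and both had none by gene body. The other lists had shares of 7.5% for the cell cycle (3.64% by gene body), 5.96% for EGF receptors and ligands, 5.56% for the epidermal differentiation complex, 4.88% for integrins and basement membrane, 4.74% for WNT and 3.85% for keratinocyte cytokines. A list's share says where late regions lie, not whether the gene is expressed.

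**Figure D5:**
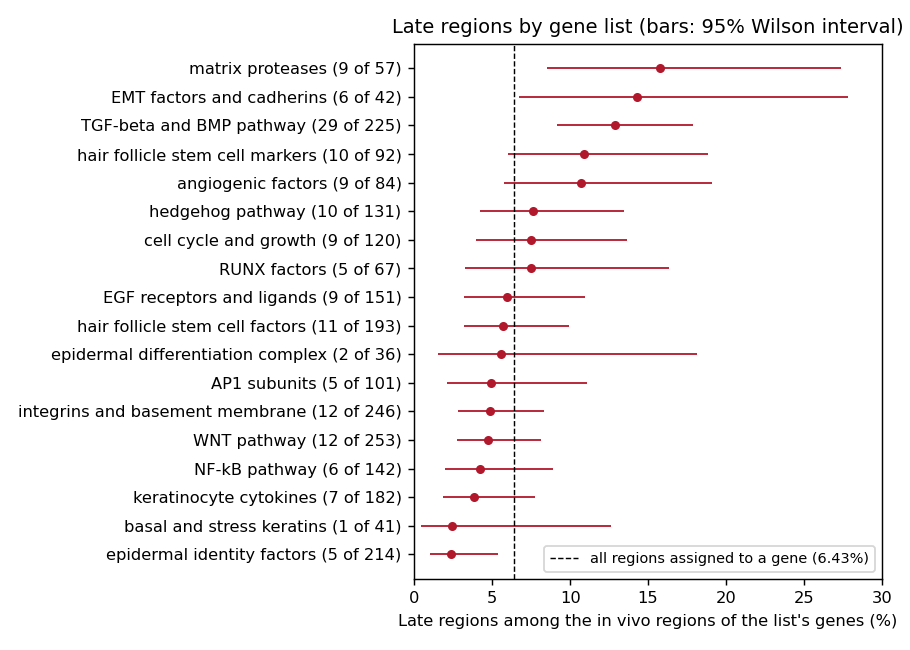
Percent of the in vivo regions of each list's genes that were late (x axis) for 18 gene lists (y axis, with late and all regions); points are shares, horizontal bars 95% Wilson intervals and the dashed line the share over all regions assigned to a gene, 6.43%. The bars of matrix proteases, of EMT factors and cadherins and of the TGF-beta and BMP list lie above the line, and that of epidermal identity factors below it.

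Scores at single regions of these genes varied. The region of the Fos list member (chr12:85519554-85519957), 45866 bp from the start of Fos, scored 10.7 at W6 and 13.4 at W12 and had a peak in all 7 culture lists, highest with AFOS (24.3) and lowest with SOX9+AFOS (4.16). A region 7975 bp from the start of Mmp9 (chr2:164932576-164933034), the gelatinase gene, scored 4.26 and 11.6, and in culture 5.08 without DOX, 35.1 with ΔHMG-SOX9 and 49.3 with ΔTA-SOX9. The Areg region (chr5:91220175-91220651) was intergenic, 80814 bp from the start of the gene of the EGF receptor ligand amphiregulin. It scored 19.4 and 18.6, and in culture 19.8 without DOX and 4.10 with WT-SOX9. The Nfkb1 intron region (chr3:135623181-135624071) scored 9.82 and 15.9 and had no culture peak. The promoter of Lgr5 (chr10:115586905-115587957), a receptor that marks hair follicle stem cells, scored 5.73 and 7.73 and had a peak in all 7 culture lists, highest with WT-SOX9 (16.3). The region at Krt14 (chr11:100215452-100215834) scored 3.92 and 4.32, and its peaks in culture were 14.9 to 48.1.

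The in vivo lists held the marks of basal epidermis. A peak within 500 bp of the start was found for 6 of 7 basal markers in 4 lists and for all 7 in the W2 list. Ly6a, the gene of the sorting marker Ly6A, lacked one at D0, W1, W6 and W12. Krt5 scored 21.7, 24.1, 20.5, 12.9 and 20.7 in the order of the weeks. None of 6 CD45-cell markers had such a peak in any list, but some markers of other cells did. Of 5 endothelial markers Tek had one at D0, W2 and W12, Kdr at W2 and W6 and Vwf at W12. Of 6 fibroblast markers Pdgfra had one in all 5 lists and Col1a1 at D0, of 7 melanocyte markers Mitf and Pmel in all 5, and of 7 Langerhans and myeloid markers Cd74 at D0, W6 and W12. Late regions were assigned to Ptprc (3) and Cd2 (1) among CD45-cell markers, and to Mitf (2), Dct (2) and Mlana (1) among melanocyte markers, 4 of 32 regions (12.5%, 4.97 to 28.1) and 5 of 37 (13.5%, 5.91 to 27.98). Endothelial markers had 3 of 44 (6.82%), myeloid markers 1 of 9 and fibroblast markers 0 of 14, which allows up to 21.5%. The intervals of these 5 lists included the 6.43% over all regions assigned to a gene, and that of basal markers (2 of 118, 1.69%, 0.466 to 5.97) lay below it. The part of other cell types in the late class was not tested.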

How the data were processed

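The authors used PEPATAC 0.10.3 to align ATAC-seq reads to GRCm38 (from the study's methods), merged both replicates of a group and called peaks on the merged reads. The submitters' processing notes name Bowtie2 2.2.9, Picard 2.3.0, SAMtools 1.9, MACS2 2.1.1 and deepTools 2.5.4. The deposited files hold a peak score, whose scaling to a common total was inferred from list totals, and, for the 5 in vivo lists, the fold ratio over background and −log10 q-value given by the authors. Read depth is unknown here. Merging, motif search and intervals used Python 3.11.15, numpy 2.4.6 and scipy 1.17.1, and were tested on simulated data. Motifs were sought on both strands in the central 200 bp. The members, 18 gene lists and 16 motifs were chosen with earlier results of these data known. Named regions were the 5 with the highest smaller score, the highest for each gene list, the 2 highest with AP1 and RUNX and with SOX and AP1 letters, and the 3 highest WT-SOX9-opened and noDOX ones. Named genes were the 12 with most late regions (ties by alphabet) and up to 3 per list with at least 2, of which 1 is not reported here. Other regions and genes were picked after their values were seen, as were the splits described. Sequences on chromosome 18 or over UTRs were passed over.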

Additional observations from a re-analysis of the deposited data

How the results depend on the processing

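No paired analysis was possible because the authors merged the replicates of each group before calling peaks, and no replicate could be left out for the same reason. The number of late regions, 6773, was 4121 with a score of at least 5, 3505 with lists of equal size (the 57334 highest peaks in vivo, 49458 in culture) and 4326 with a common −log10 q-value minimum of 14.5. Leaving out the W12 list or the W2 list, both chosen after seeing the data, gave 14727 and 14627. Without W12 the class takes in the 7954 W6 only regions. Without W2 it takes in the regions gained by W2 and kept, so that comparison with these has no value there.

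The AP1 difference from other regions (21.9 points) was 23.1 at the higher score, 25.7 at equal size, 20.03 with the q minimum, 16.0 in the central 100 bp, 10.6 without W12 and 15.7 without W2. The RUNX difference (8.84) was 10.7 at equal size, 5.40 in 100 bp, 4.93 over full regions, 6.61 without W12 and 7.10 without W2. The SOX difference (2.67) was 4.10 at equal size, 5.73 with the q minimum, 1.43 in 100 bp, 3.8 without W12 and 5.69 without W2. The difference in regions within 1 kb of a start site was -16.2, -15.4 and -16.5 for the higher score, equal size and q minimum, -12.5 without W12 and -14.5 without W2. The noDOX difference was -3.99 at the higher score, -1.61 at equal size, -22.2 without W12 and -7.96 without W2. All of these kept their direction.

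Directions turned for 19 other differences, all in culture lists but for 1. At equal size, AFOS peaks gave 1.72, AFOS losses -2.28 and SOX9+ARID1a peaks 0.757. With the q minimum, ΔTA-SOX9 peaks gave -1.30, SOX9+AFOS gains 0.780, SOX9+ARID1a peaks 0.363 and losses -0.220. AFOS losses gave -0.0169 when the peak had to cover the region's centre. RUNX letters against regions gained by W2 and kept gave -1.88 over full regions. Without W12, ΔHMG-SOX9 gains gave -0.730, ΔTA-SOX9 peaks -16.9 and losses 5.13, SOX9+ARID1a gains -1.20, and noDOX peaks against regions gained by W2 and kept -4.41. Without W2, WT-SOX9 peaks gave 0.252, ΔTA-SOX9 peaks -4.61 and losses 3.18, SOX9+AFOS gains 5.26 and SOX9+ARID1a peaks 1.13. W6 only regions, taken in without W12, had ΔTA-SOX9 peaks in 15.2% and noDOX peaks in 14.9%, against 44.4% and 40.3% of the late regions. Causes were not tested. Of 301 values under alternatives, 282 kept their direction. Merging at 100 bp, leaving out regions rich in repeats and a window at the summit, the last 2 chosen after seeing the data, turned none. Read depth is unknown, so a region without a peak may be open below the score limit.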

Other observations

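The 4 late promoters with the highest smaller score of both weeks, of 264, were at Fcrl1, Abcc10, Prr9 and Pou2af1, a set chosen after its values were seen. The first lay 712 bp from the start of Fcrl1, a gene of B cells (chr3:87376730-87377628), and scored 19.1 at W6 and 19.8 at W12. It had a peak in all 7 culture lists, from 3.498 with SOX9+AFOS to 37.3 with ΔHMG-SOX9. The promoter of Abcc10 (chr17:46324728-46325221), a transporter gene, held AP1 letters, scored 15.04 and 17.03, and had a culture peak with ΔTA-SOX9 only (7.35). The promoter of Prr9, a gene of the epidermal differentiation complex (chr3:92123897-92124375), scored 16.6 and 13.9 and had no culture peak. The promoter of Pou2af1, a B cell coactivator (chr9:51213694-51214226), scored 11.1 and 10.5 and had a culture peak with SOX9+ARID1a only (3.37).

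The 3 late regions with the highest noDOX scores were below the 95th percentile of the late regions in vivo (12.6 at W6 and 13.0 at W12). One of them, chr9:3004430-3004769, scored 122.9 without DOX but 4.75 at W6 and 8.19 at W12, and repeats filled 91% of its central 200 bp. The region in an intron of Vps36 near Thsd1 scored 115.0 without DOX and 7.65 and 9.71 in vivo, both above the upper quartiles of the late regions (7.33 and 7.16). The region 69420 bp from the start of Prag1 scored 94.3 without DOX and 3.82 and 3.799 in vivo.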
